A study of Rattus norvegicus with 12 samples.

Results

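The testes of rats fed soy protein isolate were set against those of rats fed casein and infused with estradiol. The comparison held 6 of the 12 arrays of the study, 3 labelled soy and 3 labelled casein with estradiol, and all 31042 probe sets of the array that are not Affymetrix controls. A probe set is a group of short probes that together read 1 transcript. All animals were male Sprague-Dawley rats reared through lactation on a casein-based AIN-93G diet. The soy group ate the AIN-93G diet with soy protein isolate in place of casein from postnatal day 21 to 33 and received no hormone. The casein-estradiol group stayed on casein over the same days and received 17beta-estradiol, the main natural estrogen, under the skin from an osmotic pump at 10 µg per kg per day. In both groups testes were frozen on postnatal day 34. The other 6 arrays, casein alone and soy with estradiol, served for the estimate of spread and for values given side by side. The 2 groups thus differed in both diet and hormone, and the animals of both came through the same lactation diet.

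Estrogens act on the testis through receptors in several of its cell types and, from the hypothalamus and pituitary, by lowering the gonadotropins that drive it. Leydig cells between the tubules make testosterone and insulin-like peptide 3 under luteinizing hormone, and Sertoli cells nurse the germ cells inside the tubules under follicle-stimulating hormone and testosterone. The isoflavones of soy bind the same receptors, more weakly than estradiol does. At this age the first wave of germ cells is passing through meiosis into spermatids, so the germ cell makeup of the testis changes from day to day. In whole testis RNA, fewer cells of a type and less RNA per cell cannot be told apart.

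The promoters of 4 genes described below, chosen because each holds a motif, were read from the RefSeq promoter table of the rat build GRCr8, which held 33469 windows of 300 bases, 250 before and 50 after a gene's annotated start. The 250 bases before the start are given, on the gene's own strand. Capitals mark a match to a short motif, on either strand. In Tnp1 this is the cAMP response element TGACGTCA, in Amh and Arl9 the site AAGGTCA of the steroidogenic factor Nr5a1, and in Insl3 the shorter core AGGTCA shared by many nuclear receptors, here on the opposite strand as TGACCT.
Tnp1, chr9:82044279-82044528, minus strand: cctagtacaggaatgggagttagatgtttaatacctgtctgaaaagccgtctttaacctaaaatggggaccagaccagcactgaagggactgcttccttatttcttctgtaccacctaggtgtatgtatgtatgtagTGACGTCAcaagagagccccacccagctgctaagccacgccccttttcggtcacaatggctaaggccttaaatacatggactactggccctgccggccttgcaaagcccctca
Insl3, chr16:18432939-18433188, plus strand: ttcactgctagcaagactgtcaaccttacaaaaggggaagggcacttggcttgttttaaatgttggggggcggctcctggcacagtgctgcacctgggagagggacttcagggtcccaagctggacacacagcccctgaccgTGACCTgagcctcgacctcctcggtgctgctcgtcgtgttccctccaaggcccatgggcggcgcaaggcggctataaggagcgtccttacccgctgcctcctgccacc
Amh, chr7:9559868-9560117, minus strand: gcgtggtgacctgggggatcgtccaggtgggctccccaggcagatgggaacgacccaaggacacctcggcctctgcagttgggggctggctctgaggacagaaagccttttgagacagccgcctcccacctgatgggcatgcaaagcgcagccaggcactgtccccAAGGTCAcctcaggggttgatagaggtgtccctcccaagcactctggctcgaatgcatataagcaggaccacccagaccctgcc
Arl9, chr14:31520989-31521238, minus strand: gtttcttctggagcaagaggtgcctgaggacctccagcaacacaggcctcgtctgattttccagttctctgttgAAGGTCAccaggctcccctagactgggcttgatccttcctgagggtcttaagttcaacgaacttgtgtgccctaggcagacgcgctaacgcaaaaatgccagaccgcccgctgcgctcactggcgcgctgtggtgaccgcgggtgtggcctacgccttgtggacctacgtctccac

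The matches begin 113 bases before the start in Tnp1, 108 in Insl3, 84 in Amh and 176 in Arl9. Of all windows 1.83% held TGACGTCA, 4.61% held AAGGTCA, and 16.2% held AGGTCA, which every AAGGTCA contains. Among genes with a window, TGACGTCA was held by 79 of 2357 called higher in soy alone (3.35%), 82 of 2227 called higher in casein with estradiol alone (3.68%) and 148 of 5075 that were tested and not called (2.92%). The shares with AAGGTCA were 3.69%, 2.51% and 3.05% in the same order, and 3 of the 118 named genes with a window (2.54%) held it. The palindromic estrogen response element was found in 9 windows of the whole table (0.0269%). It was held by 1 of 2357 genes called higher in soy alone, 0 of 2227 called higher in casein with estradiol alone and 1 of 5075 not called. Of the 118 named genes with a window 0 held it. The palindromic androgen and glucocorticoid element was found in 5 windows (0.0149%) and in 0 genes tested. These matches are letters in a window, not evidence of binding.

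The arrays of each group were close to one another. Pearson correlations over probe sets were 0.9943 to 0.9959 within soy, 0.9905 to 0.9956 within casein with estradiol, and 0.9596 to 0.986 between them, and no array repeated another. Some markers of germ, Sertoli and Leydig cells were at high levels in all 6 arrays, with lowest readings of 12.33 (Tnp2), 10.41 (Ctsl) and 10.59 (Insl3). Other markers were near the filter level of 5.69 in 1 group, as Testin at 5.80 to 6.51 in soy and Hsd17b3 at 5.68 to 5.87 in casein with estradiol. Values are log2 intensities after quantile normalization, and every difference is soy minus casein with estradiol on that scale. The ratio of 3′ to 5′ signal of the Gapdh control, a sign of RNA quality, was −0.35 to −0.31 log2 in soy and −0.45 to −0.38 in casein with estradiol, without overlap. That of the beta-actin control overlapped, at 1.47 to 1.56 and 1.53 to 1.95. Whether this bears on any result was not tested. Casein-estradiol replicate 2 held striated muscle transcripts. Its Acta1, the skeletal muscle actin, read 10.37 against 5.30 and 4.99 in replicates 1 and 3. Fat markers varied between arrays of both groups, with a mean level of the list of 7.22, 7.71 and 6.72 in casein-estradiol replicates 1 to 3 and 6.64, 7.94 and 7.12 in soy replicates 1 to 3.

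The soy and casein-estradiol testes differed across much of the transcriptome. With limma's moderated test, 9017 of 21729 probe sets tested passed an adjusted p of 0.05 (41.5%), 4260 higher in soy (19.6%) and 4757 higher in casein with estradiol (21.9%). The median size of a called difference was 0.396, and 2289 calls were under 0.3. Large differences lay mostly on the soy side, where 177 probe sets exceeded 2-fold, against 37 higher in casein with estradiol. The groups of 3 arrays did not overlap in 13335 probe sets (61.4%) and in 98.5% of those called. The calls named 5714 genes, and 189 genes had probe sets called in both directions. Casein-estradiol replicate 3 decided much of the count: without it 5474 probe sets were called, 2369 higher in soy and 3105 higher in casein with estradiol, and 73 and 25 of these exceeded 2-fold. Without casein-estradiol replicate 2 the counts over 2-fold were 299 and 72, and without soy replicate 3 the count higher in soy was 2610.

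**Figure D1:**
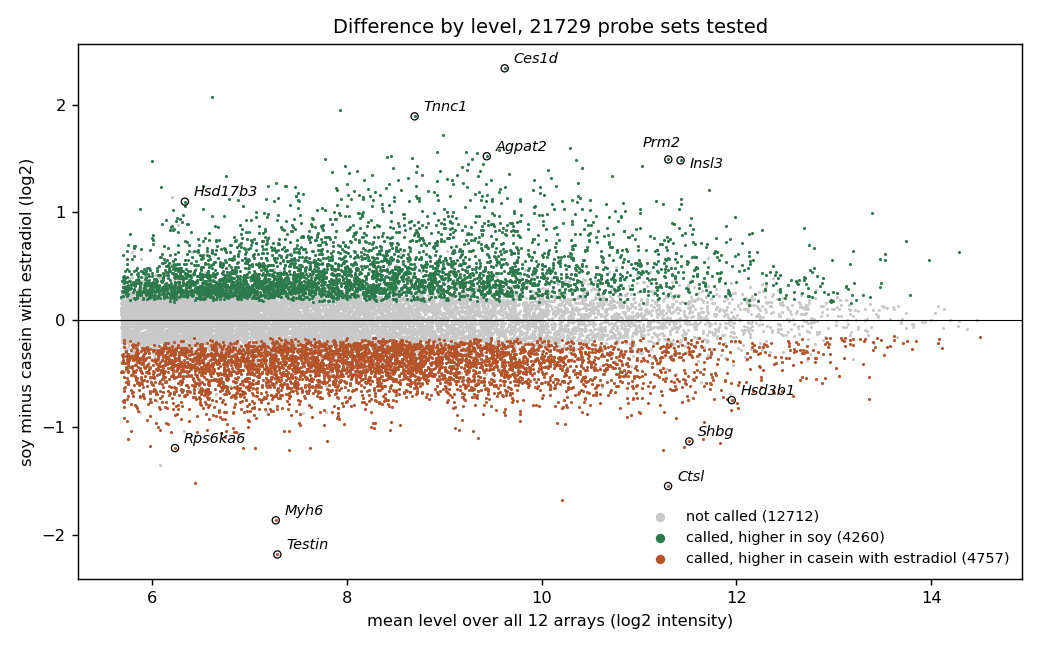
Each point is 1 of 21729 probe sets, with its mean log2 intensity over all 12 arrays on the horizontal axis and soy minus casein with estradiol (log2) on the vertical axis; colours mark the 4260 called higher in soy and the 4757 called higher in casein with estradiol. Called differences occur at every level, and Ces1d (2.34) and Testin (−2.18) are the named genes farthest from 0 on either side.

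Against the casein arrays, which both groups share as a reference, casein with estradiol differed in 9077 probe sets (41.8%) and soy in 2114 (9.73%). Because these 2 comparisons use the same casein arrays, their values are only set side by side for single genes below.

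Several Leydig cell genes differed between the groups, in both directions. Insl3, a hormone of Leydig cells that guides the descent of the testis, read 12.26, 12.06 and 12.28 in soy and 10.92, 10.59 and 10.64 in casein with estradiol. Every soy array was above every casein-estradiol array, by 1.48 in the mean (SE 0.09, 2.79-fold, adjusted p = 7.85e-06 with limma). The casein mean was 12.33 ± 0.06 (SD, n = 3) and that of soy with estradiol 10.46 ± 0.03 (SD, n = 3). Hsd17b3, which makes testosterone from androstenedione, read 6.82, 6.88 and 6.85 in soy and 5.72, 5.68 and 5.87 in casein with estradiol, a difference of 1.10 (adjusted p = 6.30e-05). Hsd11b1, which interconverts active and inactive glucocorticoids and is abundant in Leydig cells, read 9.83, 9.61 and 9.91 against 8.56, 8.52 and 8.44, higher in soy by 1.27 (adjusted p = 0.000567).

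The enzymes upstream in the pathway differed less or the other way. Hsd3b1, which makes progesterone from pregnenolone, read 11.42, 11.89 and 11.38 in soy and 12.25, 12.08 and 12.60 in casein with estradiol. It was thus lower in soy (difference −0.75, adjusted p = 0.00234), with soy replicate 2 nearest to the other group. Star, which carries cholesterol into mitochondria, was read by 2 probe sets, both higher in soy. The less intense one read 7.84, 7.90 and 7.69 against 7.0, 7.06 and 6.78 (difference 0.86, adjusted p = 0.000315). The more intense one differed by 0.58 (adjusted p = 0.0171). That call did not hold with the deposited values (adjusted p = 0.0512) or when soy replicate 2 was left out (adjusted p = 0.0616). Cyp11a1, which cleaves the cholesterol side chain, differed by 0.37 (95% interval 0.01 to 0.74, adjusted p = 0.0908), and was called higher in soy without casein-estradiol replicate 3 (0.53, adjusted p = 0.0357). Cyp17a1, which makes androgen precursors, differed by 0.31 (−0.06 to 0.69, adjusted p = 0.158), and the luteinizing hormone receptor Lhcgr by −0.08 (−0.31 to 0.15, adjusted p = 0.561). The groups overlapped in all 3 of these genes.

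Over the whole list of Leydig cell and steroid synthesis genes, 19 of 24 were tested, of which 5 were called higher in soy, 3 higher in casein with estradiol and 11 were not called, a share called close to the 41.5% of all probe sets. The median difference was 0.08, beside 0.009 over all probe sets tested. The other called members were Tspo, a cholesterol-binding protein of the outer mitochondrial membrane, higher in soy by 0.37, and 2 transcription factors higher in casein with estradiol, Gata4 (difference −0.49) and Nr5a1 (difference −0.30). Pdgfra (0.08), Scarb1 (0.08) and Fdx1 (0.06), also expressed in Leydig cells or steroid synthesis, were not called. The list's mean level was 8.96 to 9.01 in soy and 8.69 to 8.87 in casein with estradiol.

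**Figure D2:**
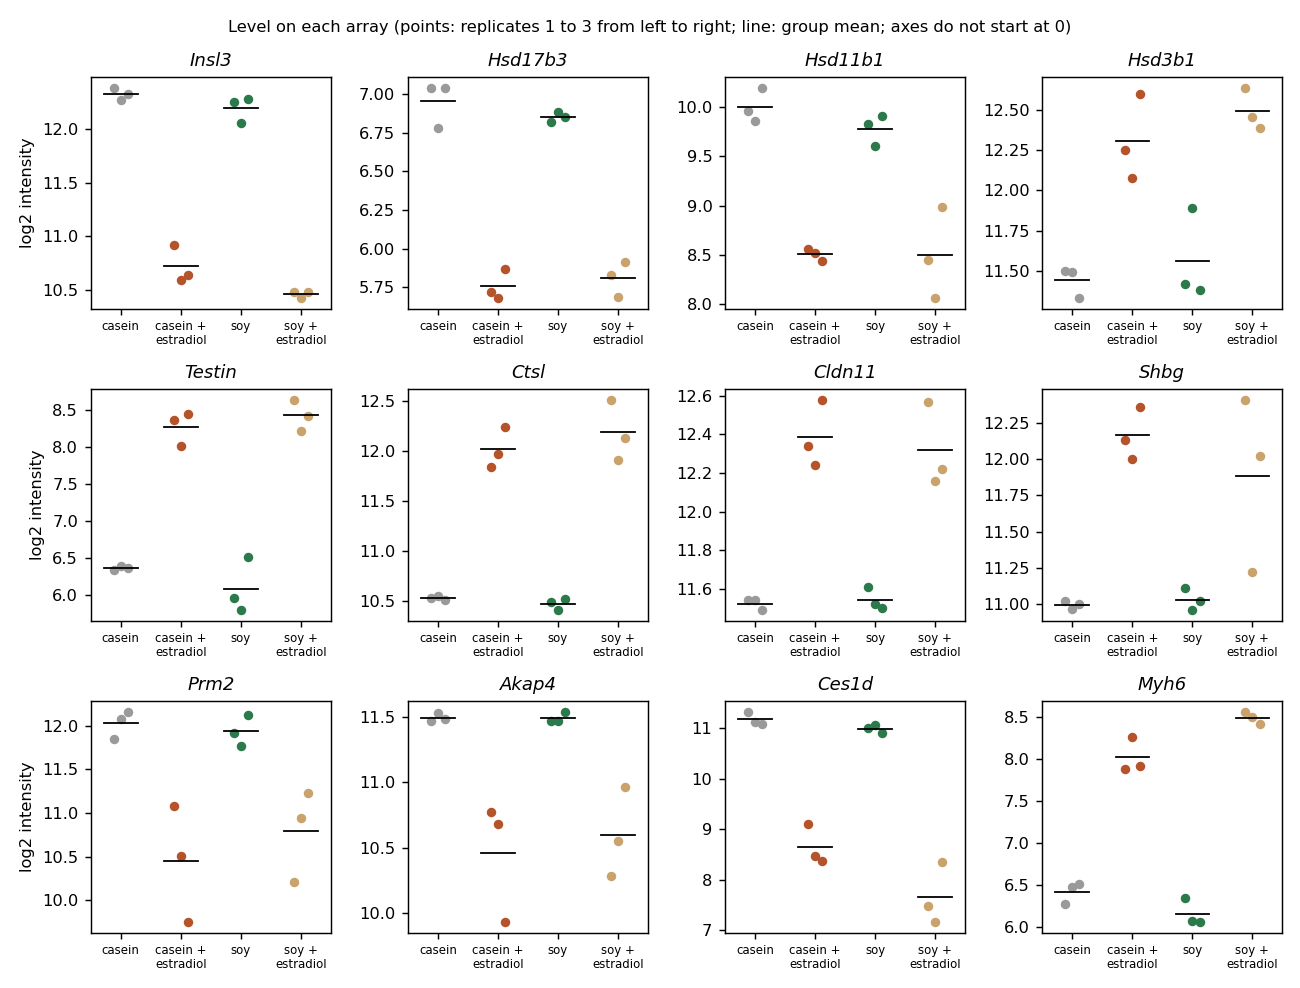
Log2 intensity of 12 genes on every array, replicates 1 to 3 from left to right within each of 4 groups, with a line at the group mean and vertical axes that do not start at 0. The soy arrays lie beside the casein arrays and apart from the casein-estradiol arrays in these genes; Insl3 reads 12.06 to 12.28 in soy and 10.59 to 10.92 in casein with estradiol.

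Sertoli cell genes were mostly higher in casein with estradiol. Of 28 listed, 21 were tested: 15 were called higher in casein with estradiol, 1 higher in soy and 5 were not called. Over all probe sets tested, 21.9% were called higher in casein with estradiol and 19.6% higher in soy. The median difference of the list was −0.49. Testin, a Sertoli cell protein of cell junctions, read 5.96, 5.80 and 6.51 in soy and 8.36, 8.02 and 8.44 in casein with estradiol (difference −2.18, SE 0.17, 4.54-fold, adjusted p = 5.19e-05). Ctsl, the protease cathepsin L that Sertoli cells release, read 10.49, 10.41 and 10.52 against 11.84, 11.97 and 12.24 (difference −1.55, 2.92-fold, adjusted p = 6.92e-05). Testin is related in sequence to cathepsin L, and both genes lie on chromosome 17. In both genes every soy array lay below every casein-estradiol array, and in Testin soy replicate 3 was the nearest to them.

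Secreted products and junction proteins of Sertoli cells moved with them. Shbg, which in the testis encodes androgen-binding protein, read 11.11, 10.96 and 11.02 in soy and 12.13, 12 and 12.36 in casein with estradiol (difference −1.13, adjusted p = 0.00216). The tight junction gene Cldn11 was lower in soy (difference −0.84, adjusted p = 0.000367). So was Kitlg, whose product acts on Kit-bearing germ cells (difference −0.89, adjusted p = 0.000402). Further members called higher in casein with estradiol were the cystatin gene Cst12 (−0.74), the secreted chaperone clusterin, Clu (−0.73), the transcription factor Wt1 (−0.70), and the junction genes Tjp1 (−0.48), Gja1 (−0.47) and Ocln (−0.38). Clu, Wt1, Gja1 and Ocln each had a less intense probe set that was not called, at 0.00, −0.39, −0.06 and −0.13.

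The Sertoli cell hormones differed by smaller amounts. Inhbb, the beta B subunit of inhibin and activin, read 8.37, 8.46 and 8.40 in soy and 8.89, 8.85 and 9.09 in casein with estradiol (difference −0.54, adjusted p = 0.000942). Amh, the anti-Müllerian hormone that Sertoli cells make before puberty, read 6.65, 6.8 and 6.86 against 7.37, 7.15 and 7.28 (difference −0.49, adjusted p = 0.00395). Inha, the shared alpha subunit, differed by −0.43 (adjusted p = 0.0308). The adjusted p was 0.133 when casein-estradiol replicate 3 was left out, and 0.0684, 0.064 and 0.0855 when soy replicates 1, 2 and 3 were. Inhba, the beta A subunit, differed by 0.00 from casein with estradiol, while both groups lay above casein, where its mean was 6.85 against 7.20 to 7.28 in casein with estradiol and 7.17 to 7.33 in soy.

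The 1 Sertoli member called higher in soy was Rhox5, a homeobox gene that androgen induces in these cells. It read 6.39, 6.11 and 6.37 in soy and 6.0, 5.91 and 6.15 in casein with estradiol, so the groups overlapped. Its difference of 0.27 (adjusted p = 0.0280) was no longer called when casein-estradiol replicate 1 (adjusted p = 0.0762), casein-estradiol replicate 2 (0.0984), soy replicate 1 (0.103) or soy replicate 3 (0.0992) was left out. Of 10 tested genes listed as androgen-responsive in Sertoli cells, 1 was called higher in soy and 3 higher in casein with estradiol, with a median of −0.04. The share called was close to the 41.5% of all probe sets. Beside Cst12, the members higher in casein with estradiol were the serine protease inhibitor Serpina5 (−0.73, adjusted p = 0.00284) and Eppin, another protease inhibitor (−0.35, adjusted p = 0.0362). The Eppin call was lost when any 1 of the 6 arrays of soy or casein with estradiol was left out (adjusted p from 0.0668 to 0.0999). Wfdc10a, a protease inhibitor gene outside the lists, read 11.10, 11.10 and 11.26 in soy and 12.26, 12.22 and 12.41 in casein with estradiol (difference −1.14, adjusted p = 0.000134).

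Spermatid genes were higher in soy throughout the list. Of 34 listed genes 24 had a probe set of their own, and all 24 passed the filter on low values and were called higher in soy, from 0.30 (Odf2) to 1.49, with a median of 0.67. With limma 0 were called the other way, and 0 were at an unadjusted p under 0.05. Over all probe sets tested, 19.6% were called higher in soy. In none of the 24 did the groups overlap, beside no overlap in 61.4% of all probe sets tested and 98.5% of those called. The list's mean level was 12.28, 12.26 and 12.35 in soy replicates 1 to 3 and 11.77, 11.72 and 11.20 in casein-estradiol replicates 1 to 3, beside 12.25 to 12.35 in casein. Casein-estradiol replicate 3 was the lowest array of that group in every spermatid gene named below. Without it the list's median was 0.49 and 19 of the 24 members were called.

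The genes that repackage sperm DNA were among them. Prm2, a protamine, read 11.92, 11.77 and 12.12 in soy and 11.08, 10.51 and 9.75 in casein with estradiol (difference 1.49, SE 0.29, adjusted p = 0.00251), and without casein-estradiol replicate 3 the difference was 1.14 (adjusted p = 0.0091). Tnp2, a transition protein that precedes the protamines, read 13.80, 13.81 and 13.81 against 13.24, 12.88 and 12.33 (difference 0.99, adjusted p = 0.00214). Tnp1 (0.74), Prm3 (0.87) and Prm1 (0.63) were also called. Prm1 read 14.57 in all 3 soy arrays, near the top of the array's range, where differences are compressed. Prm1, Prm2, Prm3 and Tnp2 are neighbours on chromosome 10.

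Genes of the sperm tail, acrosome and energy supply were higher in soy as well. Akap4, a scaffold of the tail's fibrous sheath, read 11.47, 11.47 and 11.54 in soy and 10.77, 10.68 and 9.93 in casein with estradiol (difference 1.03, adjusted p = 0.00211). Fscn3, a testis form of the actin bundler fascin, read 10.07, 9.92 and 10.01 against 9.13, 8.45 and 7.93 (difference 1.49, adjusted p = 0.00105). The acrosomal protease gene Acr differed by 0.78, the mitochondrial capsule gene Smcp by 0.64, the sperm glycolytic gene Gapdhs by 0.85 and Crem, a cAMP-responsive regulator of spermatid genes, by 0.39 on the most intense of its 6 probe sets, of which 3 were called.

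**Figure D3:**
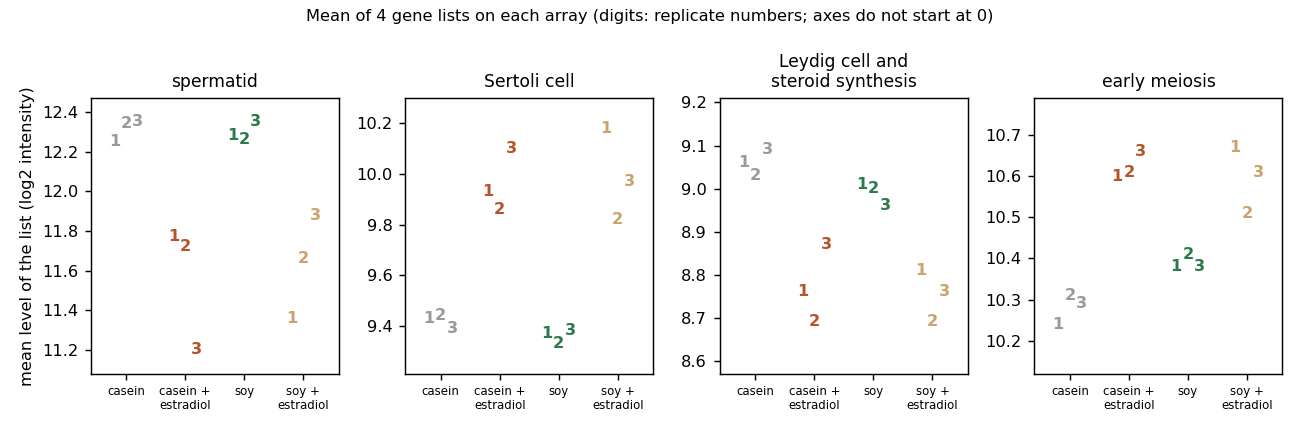
Mean log2 intensity of the tested members of 4 gene lists on each array, drawn as the replicate number within its group; vertical axes do not start at 0. Soy and casein arrays share the same range in the spermatid list (12.25 to 12.35), casein-estradiol replicate 3 is lowest (11.20), and the Sertoli cell list runs the other way (9.33 to 9.38 in soy, 9.86 to 10.10 in casein with estradiol).

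Of 12 pachytene spermatocyte genes, 3 were called higher in soy, 1 higher in casein with estradiol and 8 were not called (median 0.17). The share called lay below the 41.5% of all probe sets. The list's mean level was 11.54 to 11.60 in soy and 11.31 to 11.43 in casein with estradiol, without overlap. Of all probe sets tested, 61.4% did not overlap either. The count higher in soy was 2 without casein-estradiol replicate 3, and 5 and 7 without soy-with-estradiol replicates 1 and 2. The other count was 0 without casein-estradiol replicates 1 or 3 or any 1 soy replicate, and 2 without soy-with-estradiol replicates 1 or 2. Calr3, a testis calreticulin, read 7.74, 7.67 and 7.87 in soy and 6.97, 6.99 and 6.73 in casein with estradiol (difference 0.86, adjusted p = 0.000302). Acrv1, an acrosomal protein whose transcripts appear as spermatids form, differed by 0.70 (adjusted p = 0.0111), and the meiotic cyclin Ccna1 by 0.40 (adjusted p = 0.0127, or 0.0623 without casein-estradiol replicate 3). Ldhc, the sperm lactate dehydrogenase, differed by 0.01 and Hspa2, a testis heat shock protein of meiosis, by 0.10, and neither was called.

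Of 8 genes of early meiosis, 4 were called with limma higher in casein with estradiol and 0 higher in soy (0 at an unadjusted p under 0.05), with 4 not called and a median of −0.20. The called members were Sycp1 (−0.42), Sycp2 (−0.36) and Sycp3 (−0.26) of the synaptonemal complex, which joins paired chromosomes, and Tex15 (−0.40), needed for repair of meiotic breaks. Sycp2 read 11.26, 11.26 and 11.17 in soy, 11.54, 11.55 and 11.68 in casein with estradiol and 11.02 in the mean of casein, so soy lay between the other groups. Smc1b, a meiotic cohesin, differed by −0.04 and was not called, with means above casein in both groups. The share of this list called lay above the 41.5% of all probe sets.

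Among 13 spermatogonia genes, 1 was called higher in soy, 5 higher in casein with estradiol and 7 were not called (median −0.03). The share called was close to the 41.5% of all probe sets. Gfra1, a receptor subunit for the Sertoli cell factor Gdnf on undifferentiated spermatogonia, read 8.70, 8.56 and 8.88 in soy and 8.06, 7.80 and 7.85 in casein with estradiol (difference 0.81, adjusted p = 0.00111). Its second probe set, much less intense, was not called (0.13). Ccnd2, the D-type cyclin of differentiating spermatogonia, read 9.42, 9.40 and 9.32 against 10.24, 10.14 and 10.58 (difference −0.94, adjusted p = 0.000533). Other members higher in casein with estradiol were Cd9 (−0.95), Sohlh1 (−0.57), Sall4 (−0.54) and Uchl1 (−0.36). Ret, the other subunit of the Gdnf receptor, differed by 0.06, and Kit by −0.03, and neither was called.

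Of 26 tested genes of the cell cycle and replication, 9 were called higher in casein with estradiol and 5 higher in soy. The other 12 were not called. The share called lay above the 41.5% of all probe sets, while the share higher in soy was close to the 19.6% of all. Higher in casein with estradiol were 5 members of the replicative helicase family, Mcm2 (−0.59), Mcm3 (−0.24), Mcm4 (−0.74), Mcm5 (−0.25) and Mcm6 (−0.66). Ccna2, the S-phase cyclin, read 6.43, 6.58 and 6.25 in soy, 7.32, 7.26 and 7.47 in casein with estradiol and 6.89 in the mean of casein. Its difference between the 2 groups was −0.93 (adjusted p = 0.000302) and that of soy from casein −0.47 (adjusted p = 0.0175). Higher in soy were the cyclin genes Ccnb1 (0.51), Ccne1 (0.42) and Ccnd3 (0.18) and the mitotic kinase genes Plk1 (0.42) and Aurka (0.28). A second probe set of Ccnb1 was called the other way (−0.49, adjusted p = 0.00646), so its direction is uncertain. The count higher in soy was 1 without casein-estradiol replicate 3, 2 without soy replicate 1, 3 without casein-estradiol replicate 2 or soy replicate 2, and 4 to 7 without any other array. The count higher in casein with estradiol was 6 without casein-estradiol replicates 1 or 3, and 7 to 12 without any other array. Pcna, the sliding clamp of replication, differed by −0.11 and was not called.

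**Figure D4:**
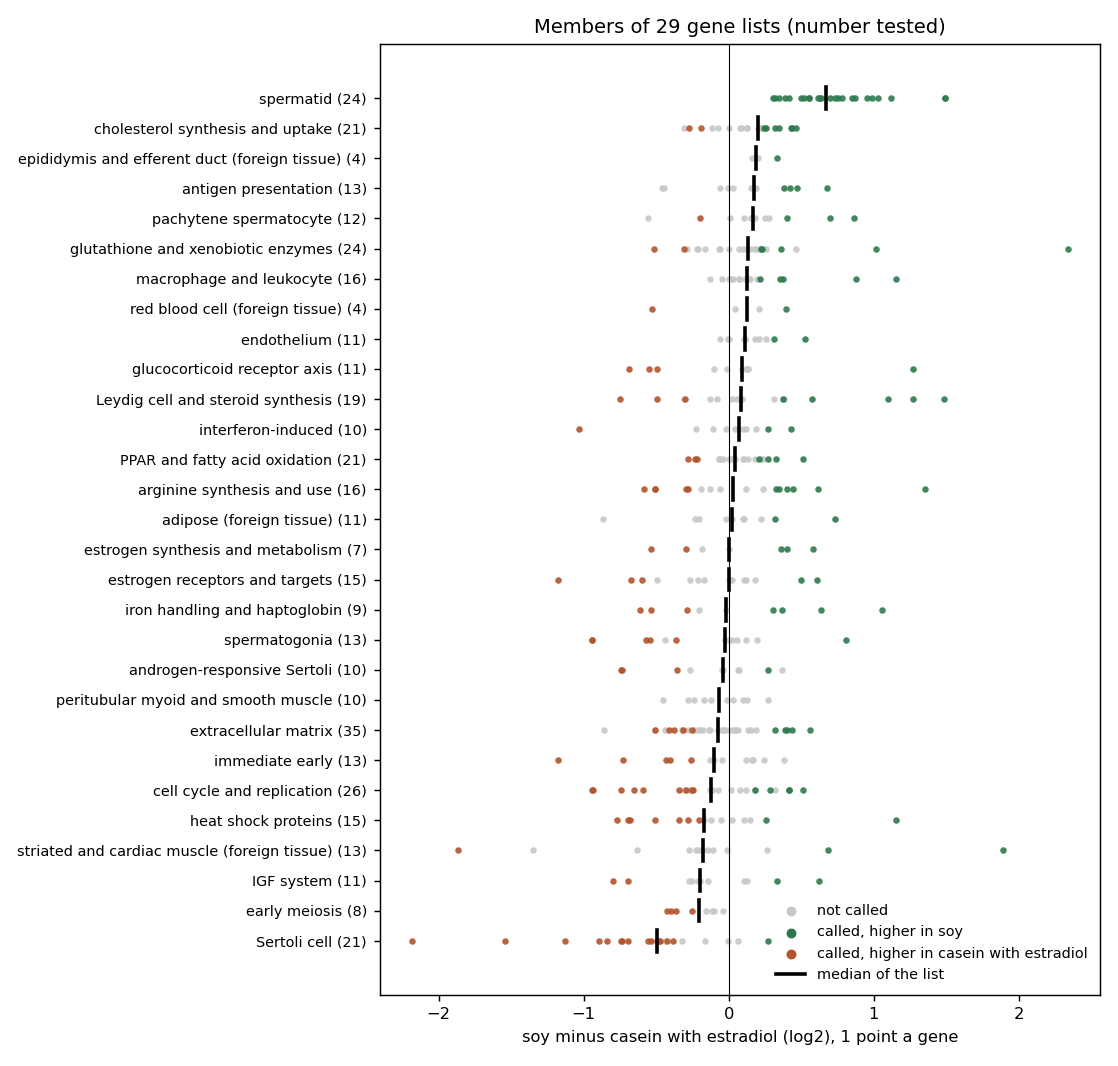
Soy minus casein with estradiol (log2) for each tested member of 29 gene lists, 1 point a gene, with a black bar at each list's median and the lists ordered by it. The 24 spermatid genes all lie above 0 (median 0.67), 15 of 21 Sertoli cell genes are called below it (median −0.49), and most other lists straddle 0.

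The largest single difference was that of Ces1d, a carboxylesterase that hydrolyses esters of lipids and drugs. It read 11.01, 11.06 and 10.91 in soy and 9.11, 8.47 and 8.38 in casein with estradiol (difference 2.34, SE 0.25, 5.06-fold, adjusted p = 0.000218). The casein mean was 11.18 and that of soy with estradiol 7.66. Ces1c, its relative and neighbour on chromosome 19, read 6.69, 6.71 and 6.58 against 5.71, 5.40 and 5.81 (difference 1.02, adjusted p = 0.000180). Ces1e, another member of the family, was not called (0.26, adjusted p = 0.305). Whether related transcripts share signal between these probe sets was not tested.

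Among the other genes with large differences higher in soy were Tnnc1 and Agpat2. Tnnc1, the troponin C of slow and cardiac muscle, read 9.52, 9.63 and 9.64 in soy and 8.26, 7.77 and 7.08 in casein with estradiol (difference 1.89, adjusted p = 0.000849). Agpat2, which acylates lysophosphatidic acid in phospholipid and triglyceride synthesis, read 10.06, 10.01 and 10.27 against 9.0, 8.63 and 8.14 (difference 1.52, adjusted p = 0.000598). Tex46 (1.72), P3r3urf (1.60), Arl9 (1.58), H2ap (1.56), MGC93861 (1.55), Cdrt4 (1.52), Rai14 (1.52), Atosb (1.49), Smim23 (1.48), Atp2b2 (1.48), C3h9orf50 (1.45), Ccsap (1.45) and Epha7 (1.43) followed. H2ap, a testis-expressed histone-like gene, read 9.80, 9.75 and 10.13 in soy and 8.86, 8.45 and 7.68 in casein with estradiol, while Arl9, a small GTPase of the ARF family, read 10.22, 10.18 and 10.41 against 9.21, 8.89 and 7.97. In each gene named here from Tnnc1 to Epha7 casein-estradiol replicate 3 was the lowest array, as in the spermatid list.

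On the other side the largest difference after Testin was that of Myh6, a cardiac myosin heavy chain. It read 6.35, 6.07 and 6.06 in soy and 7.88, 8.26 and 7.92 in casein with estradiol (difference −1.86, SE 0.11, 3.64-fold, adjusted p = 7.85e-06). Without casein-estradiol replicate 2, the array with striated muscle transcripts, the difference was −1.74 (adjusted p = 4.05e-05). Of 13 tested genes of striated and cardiac muscle, 2 were called higher in soy, Tnnc1 and Tnnt2 (0.69), 1 higher in casein with estradiol, Myh6, and 10 were not called. The share called lay below the 41.5% of all probe sets. Without casein-estradiol replicate 2, 5 were called higher in soy. Acta1 differed by −1.35 and Tnnc2 by −0.63, neither called, both high in casein-estradiol replicate 2 alone.

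Further genes higher in casein with estradiol were ones in which soy also lay below casein. Rps6ka6, an S6 kinase, read 5.48, 5.59 and 5.48 in soy, 6.85, 6.52 and 6.75 in casein with estradiol and 6.33, 6.03 and 6.03 in casein, with no overlap among the 3 groups. Its difference between soy and casein with estradiol was −1.19 (adjusted p = 6.30e-05) and that of soy from casein −0.61 (adjusted p = 0.00291). Nxpe2 (−1.51 and −0.60 from casein), Mcub, a subunit that restrains the mitochondrial calcium uniporter (−1.19 and −0.51), the kinase gene Slk (−1.05 and −0.51) and Ripor2 (−1.04 and −0.56) had the same order of groups. The soy means of Nxpe2, Rps6ka6 and Ripor2 lay under the filter level of 5.69, where signal is weak. Second probe sets of Slk (−0.25) and Ripor2 (0.13) were not called.

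Other genes of this side were not called between soy and casein on the probe set with their largest difference. Cttnbp2, a cortactin-binding protein, read 6.35, 6.34 and 6.18 in soy and 7.26, 7.29 and 7.44 in casein with estradiol (difference −1.04, adjusted p = 8.72e-05). Ildr2 differed by −1.04, with its other 3 probe sets also called, at −0.39, −0.58 and −0.69. Vcan, the matrix proteoglycan versican, differed by −1.02, with −0.48 and −0.42 on its others. On 1 of these probe sets each, soy was called above casein, by 0.53 in Ildr2 (adjusted p = 0.00252) and 0.45 in Vcan (adjusted p = 0.00434). Mpdz and Nrbp2 each differed by −1.03. Dzip3 differed by −1.09, −0.86 and −0.66 on 3 probe sets and by 0.17, not called, on another, where soy was above casein by 0.45 (adjusted p = 0.0104). Cpsf6 was called on 3 probe sets, at −1.04, −0.50 and −0.49, and not on another (0.10), and Ldb3 on 2, at −1.11 and −0.89, and not on another (0.05). Disagreement between probe sets was common: of 3214 genes with more than 1 tested probe set, 1530 had some called and some not. In Prkar2a, a regulatory subunit of protein kinase A, 1 probe set was higher in soy by 1.5, another was called the other way at −0.37 and the third differed by 0.18. A second Rai14 probe set differed by 0.03.

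Known estrogen-linked genes showed no common direction. Of 26 listed receptors and targets, 15 were tested, 2 called higher in soy, 3 higher in casein with estradiol and 10 not called, with a median of 0.00. The share called lay below the 41.5% of all probe sets. The count higher in casein with estradiol was 5 with the deposited values, with arrays centred on their medians and without soy-with-estradiol replicates 1 or 2, and 1 with a 50% filter. Higher in soy were 4 with no filter and 1 with a 50% filter. Nrip1, a corepressor that estrogen induces, read 6.69, 6.85 and 6.73 in soy and 7.55, 7.31 and 7.43 in casein with estradiol (difference −0.68, adjusted p = 0.000560). Greb1, an estrogen-induced gene of reproductive tissue, read 5.93, 6.06 and 5.86 in soy, 6.5, 6.71 and 6.42 in casein with estradiol and 6.32 in the mean of casein. The groups differed by −0.59 (adjusted p = 0.00103) and soy lay below casein (difference −0.37, adjusted p = 0.0326), while a second Greb1 probe set, at 0.10, was not called. Higher in soy were the orphan receptor Esrrb (0.50, adjusted p = 0.000791) and Trh, the thyrotropin-releasing hormone gene (0.61, adjusted p = 0.00878). The receptor genes Esr1, Esr2 and Pgr and the aromatase gene Cyp19a1 lay below the filter and were not tested: Esr1 read 4.86, 5.01 and 5.27 in soy and 4.59, 4.54 and 4.60 in casein with estradiol, and Esr2 read 4.66, 4.53 and 4.31 against 4.17, 4.31 and 4.24.

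Enzymes that handle estrogen differed in both directions, 3 of 7 tested higher in soy and 2 higher in casein with estradiol. With a 50% filter it was 1 each way. In the main fit the share called of these 7 lay above the 41.5% of all probe sets. Cyp1b1, a hydroxylase of estradiol, read 10.21, 10.23 and 10.24 in soy and 9.79, 9.49 and 9.67 in casein with estradiol (difference 0.58, adjusted p = 0.00236). Cyp1a2, a second hydroxylase, read 6.31, 6.33 and 6.28 in soy, 5.77, 5.85 and 6.07 in casein with estradiol and 5.86 in the mean of casein, so it was high in soy alone of these 3 groups (0.41 from casein with estradiol, adjusted p = 0.00680, and 0.44 from casein, adjusted p = 0.0140). Hsd17b12 (−0.53) was higher in casein with estradiol, as was Sts, the steroid sulfatase (−0.29), whose adjusted p was 0.0555 when casein-estradiol replicate 3 was left out.

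Some genes of glucocorticoid signalling and some immediate early genes were higher in casein with estradiol. The glucocorticoid receptor Nr3c1 read 6.74, 6.65 and 6.48 in soy, 7.30, 7.27 and 7.34 in casein with estradiol and 6.94 in the mean of casein (difference −0.68, adjusted p = 0.000402, and −0.32 from casein, adjusted p = 0.0377). Of 11 genes of this axis 3 were called higher in casein with estradiol and 1, Hsd11b1, higher in soy, a median of 0.09 and a share called below the 41.5% of all probe sets. The list's mean level overlapped, at 8.28 to 8.32 in soy and 8.25 to 8.33 in casein with estradiol. The target genes Sgk1 (−0.55) and Tsc22d3 (−0.49) were the others called, while Fkbp5 (−0.10), Per1 (0.13) and Dusp1 (0.12) were not. A second probe set of Fkbp5 was called at −0.62 (adjusted p = 0.00167). Of 13 immediate early genes 5 were called with limma higher in casein with estradiol and 0 higher in soy (2 at an unadjusted p under 0.05), with a median of −0.10. The share called was close to the 41.5% of all probe sets. The first count was 3 without casein-estradiol replicates 1 or 3 or soy replicates 1 or 3. The second was 1 without soy replicates 1 or 2 or soy-with-estradiol replicate 1 and 2 without casein-estradiol replicate 2. Egr1 read 7.10, 7.49 and 7.46 in soy and 8.07, 7.96 and 8.2 in casein with estradiol (difference −0.73, adjusted p = 0.000865). Fos read 5.28, 5.35 and 5.34 against 6.88, 6.08 and 6.54 (difference −1.17, adjusted p = 0.0123), with a soy mean below the filter level and an adjusted p of 0.0513 when casein-estradiol replicate 1 was left out. Ier2 (−0.43) and Ier3 (−0.40) were called, as was Jun (−0.26), whose adjusted p was 0.0662 without casein-estradiol replicate 3, 0.0547 without soy replicate 1 and 0.0642 without soy replicate 3.

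Of 15 tested chaperone genes, 7 were called higher in casein with estradiol and 2 higher in soy (median −0.17), and the first count was 4 without casein-estradiol replicates 1 or 3 or soy replicates 1 or 3. The second was 1 without casein-estradiol replicate 3 or soy replicates 1 or 3. With all arrays the share called lay above the 41.5% of all probe sets. Hsp90ab1, the constitutive cytosolic Hsp90, read 12.01, 12.20 and 11.97 in soy and 12.75, 12.60 and 12.86 in casein with estradiol (difference −0.68, adjusted p = 0.000524). Hspa4 (−0.77), Hsph1 (−0.51) and the mitochondrial chaperonin genes Hspd1 (−0.69) and Hspe1 (−0.34) went the same way. The 2 higher in soy were Dnajb1, a cochaperone of Hsp70 (0.26), and Hspb1, the small heat shock protein Hsp27. Hspb1 read 8.73, 8.69 and 8.92 in soy and 7.74, 7.77 and 7.39 in casein with estradiol (difference 1.15, adjusted p = 0.000315).

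The mean level of the macrophage and leukocyte list did not overlap, at 7.45 to 7.51 in soy and 7.22 to 7.29 in casein with estradiol. This was common: the means of the endothelium and iron lists, among others, did not overlap either, nor did 61.4% of all probe sets tested. Of 16 tested macrophage and leukocyte genes 5 were called with limma higher in soy and 0 higher in casein with estradiol (0 at an unadjusted p under 0.05), with a median of 0.13. The share called lay below the 41.5% of all probe sets. The first count was 3 with the deposited values, with arrays centred on their medians and without casein-estradiol replicate 1 or soy replicate 3. Adgre1, a macrophage surface receptor, read 7.86, 7.91 and 8.01 in soy and 6.99, 7.22 and 6.10 in casein with estradiol (difference 1.15, adjusted p = 0.00829, and 0.82 without casein-estradiol replicate 3, adjusted p = 0.0366). Aif1, a calcium-binding protein of macrophages, read 11.84, 11.83 and 11.99 against 11.27, 11.30 and 10.46 (difference 0.88, adjusted p = 0.00454). Both were lowest in casein-estradiol replicate 3, the array with the lowest spermatid level. Cd68 (0.14), Csf1r (−0.04), Tyrobp (0.07), Lyz2 (0.00) and Fcer1g (0.02), which mark the same cells, were not called. Of the 3 complement C1q genes C1qb alone was called (0.35, groups overlapping, adjusted p = 0.0396).

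Of 13 antigen presentation genes 4 were called higher in soy, the immunoproteasome genes Psmb8 (0.47) and Psmb9 (0.42, with an adjusted p of 0.0564 without soy replicate 3) and the class II genes RT1-Bb (0.68) and RT1-Ba (0.38). RT1-Bb and RT1-Ba each had other probe sets that were not called, and Cd74 (−0.46) and RT1-Da (−0.45) of the same class II pathway were not called. Among 10 interferon-induced genes Isg15 (0.43) and Irf7 were called higher in soy, the latter at 0.27 and with an adjusted p from 0.056 to 0.0821 without casein-estradiol replicates 1 or 2 or soy replicates 2 or 3, and the helicase gene Ddx60 higher in casein with estradiol (−1.03, adjusted p = 0.000789). In the endothelium list 2 of 11 were called higher in soy, the receptor Flt1 (0.53, adjusted p = 0.00218) and Eng (0.31, adjusted p = 0.012). The adjusted p of Eng was 0.061 with the deposited values, 0.0548 without casein-estradiol replicate 1 and 0.0513 without its replicate 3. Of 10 genes of peritubular myoid cells and smooth muscle 0 were called with limma (1 at an unadjusted p under 0.05, higher in soy), and 2 were called higher in soy without casein-estradiol replicate 2, which had the highest list mean of its group (8.69 against 8.15 in both others). Of 11 fat genes 2 were called higher in soy, Lipe and Cidec (0.73), and 1 without casein-estradiol replicate 3 or soy replicates 2 or 3. Of 4 epididymis and efferent duct genes 1 was, Pax8 (0.33), a call lost without casein-estradiol replicates 1 or 3 or soy replicates 1 or 3. Of 4 red cell genes Epb42 was called higher in soy (0.40). The beta globin gene Hbb was called higher in casein with estradiol (−0.53, adjusted p = 0.00226). The share called lay below the 41.5% of all probe sets in the antigen presentation, interferon, endothelium, smooth muscle, fat and epididymis lists. It lay above that share in the red cell list, which held only 4 tested genes.

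Of 21 genes of cholesterol synthesis and uptake 7 were called higher in soy and 2 higher in casein with estradiol, a share close to the 41.5% of all probe sets, with a median of 0.20. The synthetic enzymes Tm7sf2 (0.46, adjusted p = 0.00312), Cyp51 (0.44, adjusted p = 0.00780), Fdps (0.35), Mvd (0.26) and Pmvk (0.24) were higher in soy, and the regulator Srebf2 (−0.19) and the esterifying enzyme Soat1 (−0.27) were higher in casein with estradiol. These last 2 calls were lost without casein-estradiol replicates 1 or 3 or soy replicates 2 or 3. Lipe, the hormone-sensitive lipase that frees cholesterol from its esters, read 8.86, 8.76 and 8.98 in soy, 8.55, 8.55 and 8.53 in casein with estradiol and 8.43 in the mean of casein. On this probe set soy stood above both other groups, by 0.32 (adjusted p = 0.0104, or 0.0505 without soy replicate 3) and 0.44 (adjusted p = 0.00762). On its other Lipe read 9.05, 9.0 and 9.18 in soy and 8.18, 8.29 and 7.82 in casein with estradiol (difference 0.98, adjusted p = 0.000431), and soy was not called above casein (0.18, adjusted p = 0.454).

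Hp, the hemoglobin-binding protein haptoglobin, took a middle position in soy. It read 8.56, 8.44 and 8.45 in soy, 7.65, 7.43 and 7.18 in casein with estradiol and 8.99 in the mean of casein, so soy lay above casein with estradiol by 1.06 (adjusted p = 0.00022) and below casein (difference −0.51, adjusted p = 0.015). The iron uptake genes Tfrc, the transferrin receptor (−0.54, adjusted p = 0.00345), and Slc11a2, an iron transporter (−0.61, adjusted p = 0.00328), were higher in casein with estradiol, and the iron exporter Slc40a1 was higher in soy on its most intense probe set (0.37, adjusted p = 0.0419) and lower on its other (−0.63, adjusted p = 0.00123), so its direction is uncertain. Of 9 tested iron genes 4 were called higher in soy and 3 higher in casein with estradiol. The share called lay above the 41.5% of all probe sets. The first count was 1 without soy replicate 2. It was 2 with the deposited values, without casein-estradiol replicates 1 or 3 and without soy replicates 1 or 3.

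Ass1, which makes argininosuccinate in arginine synthesis, read 10.52, 10.54 and 10.45 in soy and 9.16, 8.97 and 9.32 in casein with estradiol (difference 1.35, adjusted p = 0.000952), and Asl, the next enzyme, was higher in soy by 0.40 (adjusted p = 0.00518). The creatine synthesis genes Gatm (−0.58) and Gamt (−0.50), which draw on arginine, were higher in casein with estradiol. Nos2, the inducible nitric oxide synthase, read 8.25, 8.04 and 8.27 in soy, 7.82, 7.80 and 7.89 in casein with estradiol and 7.70 in the mean of casein, again above both (0.35, adjusted p = 0.00469, and 0.49, adjusted p = 0.00272). Of 16 tested arginine genes 6 were called higher in soy and 5 higher in casein with estradiol. The latter count was 3 without casein-estradiol replicate 3. With all arrays the share called lay above the 41.5% of all probe sets.

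In the IGF list 2 of 11 genes were called in each direction, a share called below the 41.5% of all probe sets. Igfbp2 (0.62, adjusted p = 0.000983) and Igfbp4 were higher in soy and Igf2r, which clears IGF2 (−0.70, adjusted p = 0.00115), and Igfbp3 (−0.80) were higher in casein with estradiol, with an adjusted p for Igfbp3 from 0.0618 to 0.073 without casein-estradiol replicates 1 or 3 or soy replicates 1 or 3. Igfbp4 read 8.02, 7.99 and 8.23 in soy, 7.76, 7.77 and 7.71 in casein with estradiol and 7.74 in the mean of casein, and soy differed from these by 0.33 and 0.35 (adjusted p = 0.00357 and 0.00976). Igf1 itself differed by 0.11 and was not called. Of 24 glutathione and xenobiotic genes, the list that holds Ces1d and Ces1c, 5 were called higher in soy and 2 higher in casein with estradiol, among them Gclc, the rate-limiting enzyme of glutathione synthesis (−0.51, adjusted p = 0.000942). This share called also lay below the 41.5% of all probe sets. The first count was 2 without casein-estradiol replicate 3 or soy replicate 1, 3 without soy replicates 2 or 3 or casein replicates 2 or 3, and 4 to 7 without any other array. The second was 1 without casein-estradiol replicate 3 or soy replicate 1 and 3 without casein-estradiol replicate 2 or any 1 soy-with-estradiol replicate.

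Of 35 extracellular matrix genes 5 were called in each direction and 25 were not, a share called below the 41.5% of all probe sets. Timp1, an inhibitor of matrix proteases, read 9.77, 9.79 and 9.82 in soy and 9.12, 9.38 and 9.20 in casein with estradiol (difference 0.56, adjusted p = 0.000742), while its relative Timp2 went the other way (−0.32, adjusted p = 0.00809). The basement membrane genes Nid2 (0.44), Col4a2 (0.40) and Col4a1 (0.32) were higher in soy and Nid1 (−0.51) and Lamb2 (−0.38) higher in casein with estradiol. Fibrous collagens were not called and were highest of the soy group in replicate 2, as with Col3a1 at 10.56, 11.92 and 10.80. The count higher in casein with estradiol was 2 without casein-estradiol replicate 3 or soy replicates 1 or 3, 9 without soy replicate 2 and 8 without soy-with-estradiol replicate 1 or with the deposited or the median-centred values. The count higher in soy was 3 with the deposited or the median-centred values and without casein-estradiol replicate 3 or soy replicates 2 or 3. Of 21 genes of PPAR signalling and fatty acid oxidation 4 were called higher in soy and 3 higher in casein with estradiol, of which the brain- and testis-expressed Cpt1c was the largest (0.51, adjusted p = 0.00393). That share called was below the 41.5% of all probe sets as well. The first count was 1 without casein-estradiol replicate 1 or any 1 soy replicate, 2 without casein replicate 1, and 1 with the deposited or the median-centred values. The second was 0 without casein-estradiol replicate 3 and 1 without casein-estradiol replicate 1, any 1 soy replicate, casein replicates 2 or 3 or soy-with-estradiol replicate 3.

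Genes of the X chromosome differed in their direction from those of the autosomes, a description made after the values were seen. Of 405 X-linked probe sets with 1 gene symbol, 172 were called higher in casein with estradiol (42.5%) and 46 higher in soy (11.4%), with a median difference of −0.207. Of 15671 autosomal probe sets 20.4% were called higher in casein with estradiol and 21.4% higher in soy, with a median of 0.0237, and the next chromosome by the first share was 2, at 27.4%. The mean level of the X-linked probe sets was 7.51, 7.53 and 7.49 in soy, 7.69, 7.65 and 7.71 in casein with estradiol and 7.56 to 7.57 in casein. Without casein-estradiol replicate 3 the X-linked and autosomal shares higher in casein with estradiol were 31.9% and 13%.

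The X-linked genes with the largest differences fell into 2 sorts. Higher in casein with estradiol were Rps6ka6, the zinc finger gene Zfx (−1.0), Sox3, a transcription factor of spermatogonia (−0.98), Bclaf3 (−0.92), Maged1 (−0.91) and the chromatin remodeller Atrx (−0.90, with 3 of its other 4 probe sets called at −0.51 to −0.60). Sox3 read 6.92, 7.05 and 7.0 in soy and 7.94, 7.79 and 8.18 in casein with estradiol (adjusted p = 0.000366). On the probe set with its largest difference Atrx read 5.38, 5.76 and 5.24 in soy, near or under the filter level of 5.69. Higher in soy were genes of the list of spermatids or of testis histones, H2ap, H2al2l (1.11) and Akap4, with 1700020N15Rikl (1.26), Sh3kbp1 (0.99) and Ribc1 (0.94). All of these 6 were lowest in casein-estradiol replicate 3.

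**Figure D5:**
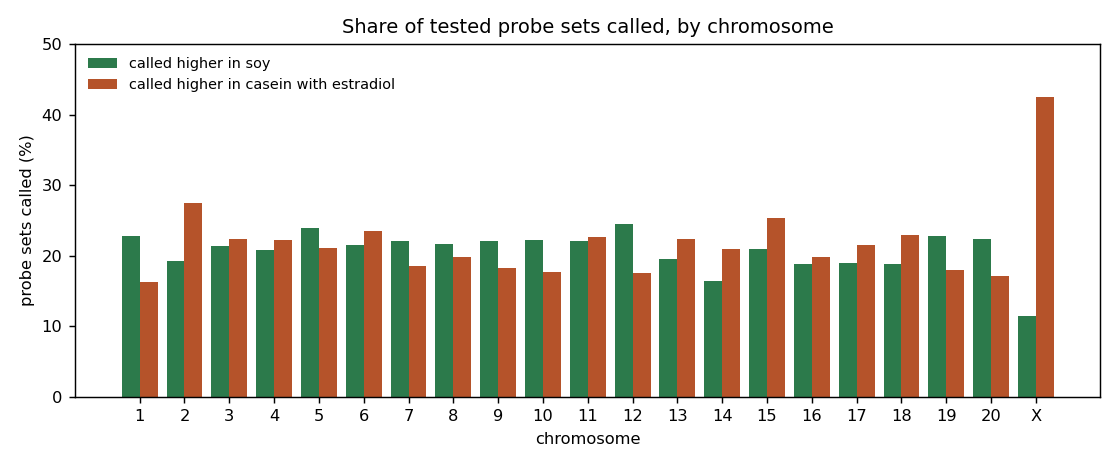
Share of tested probe sets (percent, 1 gene symbol each) called higher in soy and called higher in casein with estradiol, for each of 20 autosomes and the X chromosome. The shares of the X chromosome are 11.4% and 42.5%, and no autosome exceeds 27.4% higher in casein with estradiol.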

How the data were processed

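RNA of whole testis was hybridised to Affymetrix rat expression arrays. The authors deposited 1 log2 intensity per probe set, and GCOS, the Affymetrix software, is named in the submitters' processing notes; how it corrected, summarised and scaled the signals is not given in the sources used here. From the values, they are on the log2 scale. All 12 columns were quantile-normalized, control probe sets (57 of 31099) and the 30% of the others with the lowest means (below 5.69) were left out, and 21729 probe sets were fitted with limma 3.58.1 under R 4.3.3. The model gave each of 4 groups a mean (8 residual degrees of freedom), with eBayes and a mean-variance trend. Adjusted p-values are Benjamini-Hochberg over all probe sets tested, called under 0.05. The procedure was tested on simulated data. With 3 arrays a group, the smallest two-sided exact p is 0.1. Precision is limited by the number of arrays.

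Gene names came from the platform annotation: 20826 probe sets had 1 symbol, 436 several and 9780 none, and only the first kind was named. Of these, 20758 matched the RefSeq gene table and 0 symbols changed. Fshr had no tested probe set of its own. Each list gene was read from its most intense probe set, as counts of calls and a median, with no test. The named genes were the 20 with the largest difference in each direction among called probe sets with 1 symbol whose arrays did not overlap, the 4 members of each of 29 lists with the smallest p, and 15 fixed genes, and the text shortens each part from its end. Other list members are given as values. Tnp1 and the X-linked genes were chosen after their values were seen, and AGGTCA was added to the motifs then. Members and lists were chosen with earlier results of these data known. Nothing in the labels says that the 3 arrays of a group are separate animals, so p-values measure only the spread between these samples. The labels do not say whether replicate numbers pair the arrays. Deviations of same-numbered soy and casein-estradiol arrays correlated at 0.02, −0.12 and −0.23, which with 3 arrays a group cannot settle it.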

Additional observations from a re-analysis of the deposited data

How the results depend on the processing

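Of the 133 probe sets of named genes that were called, 111 kept their call and sign under every alternative that tested them, 22 lost the call under at least 1, and 0 reversed. The count of 9017 calls became 9134 with the deposited values (40% of calls higher in soy, against 47.2%), 9183 with arrays centred on their medians (42.8%), 9239 with no filter, 7541 with a 50% filter, 10700 with the 6 arrays fitted alone and 9014 without the trend. With a replicate block, a paired fit on replicate numbers that the labels do not state to be pairs, it was 8715, and 3 named probe sets lost their call. Leaving out 1 array gave 5474 to 10550 calls, 2369 to 4999 higher in soy and 3105 to 5551 higher in casein with estradiol, the lowest without casein-estradiol replicate 3 and the highest without soy with estradiol replicate 2. The Sertoli cell count of 1 higher in soy was 0 with a 50% filter, 2 over all probe sets of each member and 0 to 1 with 1 array left out. Counts of other lists that moved by more than 1.5 times with 1 array left out are mostly given beside the list. Probe sets near the filter level give differences that are at most lower bounds, and those near the top of the range are compressed.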
